A study of Homo sapiens with 18 samples.

Results

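ATF6, ATF6B, CREB3, CREB3L1, CREB3L2 and CREB3L4, transcription factors that are made as membrane proteins of the endoplasmic reticulum (ER), were examined together with MBTPS1 and MBTPS2, the site-1 and site-2 proteases that cut them. The genes were chosen by symbol, and all 8 were found among the 28266 rows of the count table and passed the filter on low counts with 14341 genes in all. To ask how blocking protein N-myristoylation changes transcription in senescent and in control cells, poly(A) RNA of IMR90 ER:RAS cells was sequenced in 18 libraries, 3 for each of 6 groups. IMR90 cells are human fibroblasts from lung, and every group carried the retroviral ER:RAS fusion. In this fusion the hormone-binding part of the oestrogen receptor keeps oncogenic RAS inactive until 4-hydroxytamoxifen (4OHT) is added. Senescent cells had received 100 nM 4OHT and control cells DMSO. After 7 days, cells of each state were given IMP1088 at 300 nM, DDD86481 at 1.5 µM or DMSO for 3 days, and all were collected on day 10. Both compounds inhibit the N-myristoyltransferases NMT1 and NMT2, enzymes that add the fatty acid myristate to the start of proteins, the Golgi's ARF GTPases among them. The groups are called control DMSO, control IMP1088, control DDD86481, senescent DMSO, senescent IMP1088 and senescent DDD86481, and replicates 1 to 3 are the libraries in the order of their labels. The study describes its replicates of this experiment as independent experiments, the labels say no more than a replicate number, and p-values measure the spread between these libraries. The columns of the count table name the second inhibitor PCLX001, while the labels tie each of these columns to a sample given DDD86481, the name used here.

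In resting cells ATF6 and ATF6B are held in the ER by the chaperone BiP. When unfolded proteins build up, the factors travel to the Golgi, where MBTPS1 cuts the part inside the lumen and MBTPS2 then cuts within the membrane. The freed cytosolic part enters the nucleus and, in the case of ATF6, switches on ER chaperones and degradation genes. The CREB3 family is released by the same proteases and is known for genes of ER-to-Golgi transport, Golgi stress and collagen secretion. Since release is a step on the protein, an RNA level of these genes is not a measure of the cut, active factor.

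The DNA letters that such factors are known to bind were looked for in the RefSeq promoter windows of GRCh38.p14. Each window ran from 250 bases before to 50 bases after a listed start, and all 8 genes had an entry. Both strands were searched for the ER stress element (ERSE, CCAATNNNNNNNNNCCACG), its second form (ERSE-II, ATTGGNCCACG), the core of the unfolded protein response element (UPRE, TGACGTGG), the cyclic AMP response element (CRE, TGACGTCA) and ACGTGGC, a core of elements bound under Golgi stress. ERSE-II and the UPRE core can overlap each other, and ACGTGGC can overlap a UPRE core in all but its last letter. In CREB3, the gene with the largest change under the inhibitors, 1 match was found, ACGTGGC at -166. These letters were held by 3.22% of all 35116 windows and by 4.02% of the 16242 windows of genes tested. In CREB3L2, whose response differed between states, the first of 2 windows held a CRE at -179. A CRE was found in 1.85% of all windows and in 2.76% of those of genes tested. Whether either match has a part in the responses was not tested. The windows of the other 6 genes and the second CREB3L2 window held none of the motifs searched. Only listed starts were covered, so a promoter at another start of a gene was not searched. The CREB3L1 window, chr11:46294909-46295208, was not checked against the annotated start of that gene, which is given below on another build. The 250 bases before the start of CREB3 and CREB3L2 are shown with the matches in capitals.
CREB3, chr9:35732416-35732665, plus strand: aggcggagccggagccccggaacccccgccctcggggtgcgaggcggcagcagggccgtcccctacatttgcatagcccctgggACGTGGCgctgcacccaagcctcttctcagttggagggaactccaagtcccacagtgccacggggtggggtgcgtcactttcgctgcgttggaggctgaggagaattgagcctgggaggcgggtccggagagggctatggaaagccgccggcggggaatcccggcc
CREB3L2, chr7:138002087-138002336, minus strand: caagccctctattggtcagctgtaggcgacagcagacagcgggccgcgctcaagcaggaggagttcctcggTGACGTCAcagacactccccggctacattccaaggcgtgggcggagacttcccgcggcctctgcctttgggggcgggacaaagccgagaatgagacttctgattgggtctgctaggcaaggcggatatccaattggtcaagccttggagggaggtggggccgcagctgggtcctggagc

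Known targets of ATF6 were searched in the same way. Among 15 listed genes, with DERL3 without an entry, ERSE was found in HSPA5, HSP90B1, CALR, CRELD2 and, in 1 of 2 windows each, PDIA6 and XBP1, and ERSE-II in HYOU1, SDF2L1 and HERPUD1. Other matches in these targets were the UPRE core in HYOU1 and ACGTGGC in HERPUD1. The further gene lists described below added the UPRE core in SEC23A and in 1 of 2 INSIG2 windows, ACGTGGC in SEC23A and PDIA5, and ERSE-II in NUCB1. In those lists ARF4, SEC24D, COL1A1 and C12orf49 had no entry. Of all windows, 0.0769% held ERSE and 0.0541% held ERSE-II, and of those of genes tested 0.111% and 0.08%. The targets were listed from earlier knowledge, in which such sites can have had a part, so these shares are no test of the list. ERSE and ERSE-II sites of 7 of the ATF6 targets are shown as examples of the letters, with the fixed letters of each motif in capitals. All are written along the gene's own strand, so a motif matched on the opposite strand reads as its reverse complement.
HSPA5, ERSE, chr9:125241391-125241409, first base at -66: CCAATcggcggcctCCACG
HSP90B1, ERSE, chr12:103930216-103930234, first base at -194: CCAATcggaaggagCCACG
HSP90B1, ERSE, chr12:103930321-103930339, first base at -89: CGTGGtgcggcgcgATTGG
CALR, ERSE, chr19:12938384-12938402, first base at -225: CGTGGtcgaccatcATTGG
XBP1, ERSE, chr22:28800603-28800621, first base at -52: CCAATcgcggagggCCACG
HERPUD1, ERSE-II, chr16:56932025-56932035, first base at -117: ATTGGgCCACG
SDF2L1, ERSE-II, chr22:21642114-21642124, first base at -188: CGTGGaCCAAT
HYOU1, ERSE-II, chr11:119057380-119057390, first base at -185: CGTGGtCCAAT
HYOU1, ERSE-II, chr11:119057274-119057284, first base at -79: CGTGGtCCAAT

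The libraries held from 16143716 to 23189950 counts, and the 10 most abundant genes took between 5.26% and 7.96% of each. Values are given in CPM, counts per 1000000 counts of a library whose total was scaled by the trimmed mean of M values (TMM). A count of 0 allows up to 3 counts, or between 0.121 and 0.187 CPM, which covers counting error only. As a check of the cells, all 8 fibroblast markers exceeded this limit in each group, with a summed level from 24195 to 30349 CPM in control DMSO, from 16364 to 16744 CPM in senescent DMSO and from 11344 to 12125 CPM in senescent DDD86481. Most of the sum in senescent DMSO was VIM, at 11681 CPM ± 374 (SD, n = 3), while the other markers were lower than in control DMSO. DCN went from 3042 CPM ± 226 to 7.73 ± 0.288 and LUM from 314 ± 21.4 to 8.39 ± 1.01. COL3A1 went from 3701 CPM ± 620.1 to 296 ± 47.9 and COL1A2 from 7319 ± 1509 to 708 ± 78.2. Of 7 epithelial, endothelial and leukocyte markers, 3 exceeded the limit in at least 1 library of each control group. They were EPCAM and CD68, with PECAM1 in control DMSO and control DDD86481 and PTPRC in control IMP1088. In each senescent group 5 did. There CD68, a lysosomal protein of macrophages that other cells also make, accounted for most (17.5 CPM ± 2.43 in control DMSO and 132 CPM ± 15.8 in senescent DMSO, SD, n = 3). The epithelial keratin KRT5 was at 0 in all 18 libraries. Their part in the results was not tested, and in bulk RNA fewer cells of a type and less RNA per cell cannot be told apart. The labels of state were checked with CDKN1A, an inhibitor of the cell cycle, at 377 CPM ± 34.6 in control DMSO and 2126 CPM ± 159 in senescent DMSO, and with the proliferation gene MKI67, at 21.6 CPM ± 9.81 and 0.161 CPM ± 0.0439. With IMP1088 and DDD86481, MKI67 stood at 3.63 CPM ± 0.685 and 3.94 ± 1.7 in control cells. CDKN1A stood at 344 CPM ± 45.5 and 340 ± 14.2 there, and at 1319 ± 126 and 1389 ± 117 in senescent cells. Whether these levels have a part in the results was not tested. Control DMSO replicate 3 stood apart over all genes, with a chi-square per gene of 104 and 52.3 against replicates 1 and 2. Other pairs within a group had between 5.26 and 27.9. It also had the group's lowest level of ATF6, ATF6B, CREB3L1, CREB3L2, MBTPS1 and MBTPS2 and its highest of CREB3 and CREB3L4, so results that turn on it are also given without it.

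Levels were compared between the 8 genes only per kilobase of exon, since longer transcripts collect more reads. In control DMSO libraries CREB3 stood highest, at 62.7 CPM per kilobase ± 8.58 (SD, n = 3), followed by CREB3L1 at 39.4 ± 5.49, MBTPS1 at 21.7 ± 2.34 and ATF6B at 13.6 ± 2.11. CREB3L2 followed at 7.8 CPM per kilobase ± 2.54, and ATF6, MBTPS2 and CREB3L4 had 4.54 ± 0.475, 4.43 ± 0.0984 and 1.91 ± 0.292. ATF6 and MBTPS2 differed by less than their spread, and changed places when the longest transcript was used in place of all exons. CREB3 was the highest and CREB3L4 the lowest of the 8 in each of the 6 groups by either length. In senescent IMP1088 libraries CREB3 reached 146 CPM per kilobase ± 3.89 and CREB3L1 stood at 12.6 ± 0.226, against 58.4 ± 4.94 and 19.1 ± 0.52 in senescent DMSO. CREB3L3, the remaining member of the CREB3 family and best known from the liver, had 1 count in 1 control IMP1088 library and 0 counts in the other 17.

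**Figure D1:**
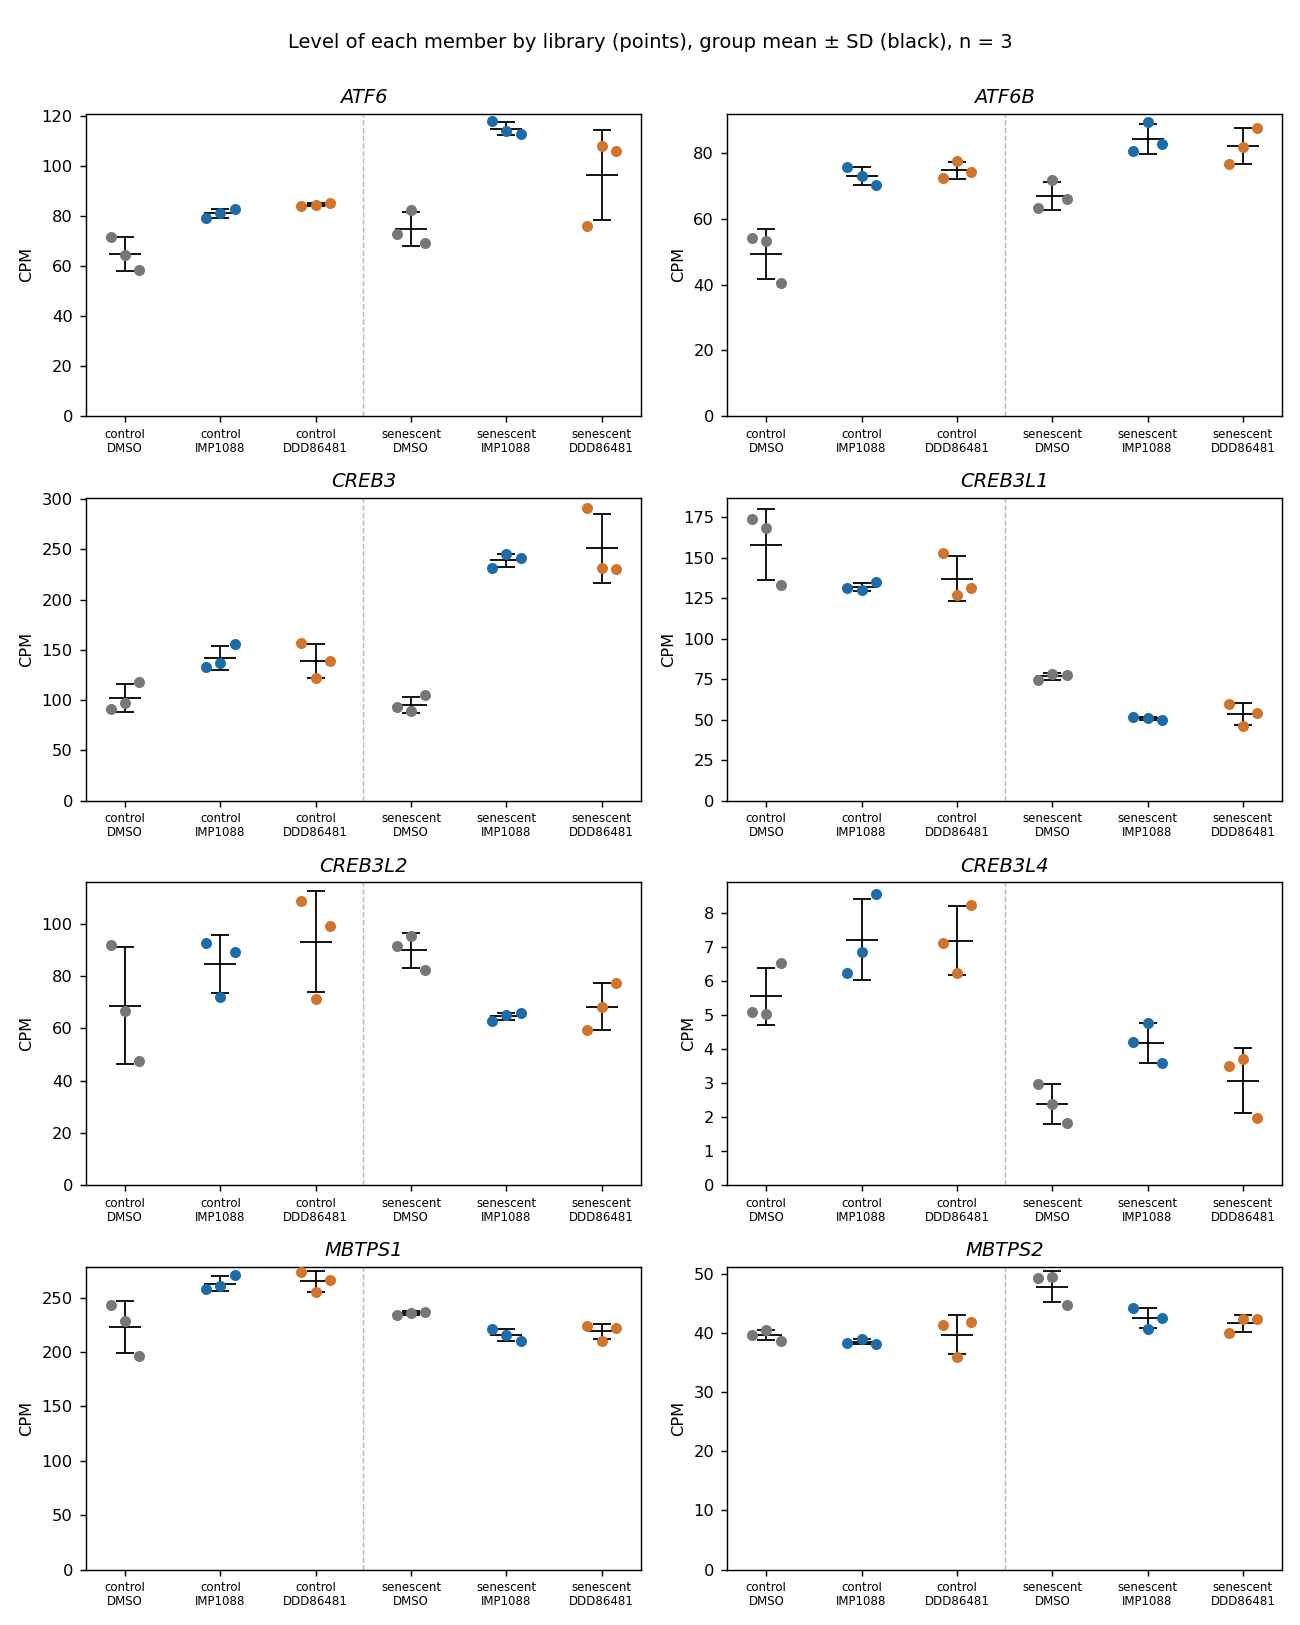
Level in CPM (vertical axis, from 0) of each of the 8 genes in the 6 groups (horizontal axis), with a point for each library and the group mean ± SD in black (n = 3). CREB3 rises from between 89.0 and 105 CPM in senescent DMSO to between 231 and 291 CPM under the inhibitors, while CREB3L1 is lower in all 9 senescent libraries than in any control library.

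CREB3, also called Luman, is known as a regulator of genes of ER-to-Golgi transport, and gave the largest response to the inhibitors of the 8 genes. In control DMSO libraries its level was 91.5, 97.6 and 118 CPM, and in senescent DMSO 93.1, 89.0 and 105 CPM, so that the groups overlapped (log2 fold change -0.10 ± 0.12, SE, edgeR adjusted p = 0.457). The sign of this difference turned without control DMSO replicate 3, to 0.015. Senescent cells given IMP1088 had 232, 245 and 241 CPM, and those given DDD86481 had 291, 232 and 231 CPM. Every inhibitor library lay above every senescent DMSO library. The rise was 2.5-fold with IMP1088 (log2 1.32 ± 0.12, adjusted p = 2.86e-08) and 2.63-fold with DDD86481 (log2 1.39 ± 0.12, adjusted p = 1.69e-08). Control cells had 133, 137 and 156 CPM with IMP1088 and 157, 122 and 139 CPM with DDD86481, again with no overlap with DMSO. There the rise was smaller, 1.39-fold with IMP1088 (log2 0.47 ± 0.12, adjusted p = 0.00383) and 1.36-fold with DDD86481 (log2 0.44 ± 0.12, adjusted p = 0.00555). The rise with DDD86481 in control cells had an adjusted p of 0.0521 when the fit held only the 6 libraries compared.

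ATF6, the sensor best known for induction of ER chaperones, rose with both inhibitors in both states. Its level was 71.8, 64.3 and 58.3 CPM in control DMSO and 72.8, 82.5 and 69.3 CPM in senescent DMSO, and the groups overlapped (log2 fold change 0.21 ± 0.11, edgeR adjusted p = 0.107). Without control DMSO replicate 1 this difference passed the threshold (0.29, adjusted p = 0.0377). Senescent IMP1088 libraries had 118, 114 and 113 CPM, the highest of any group and above every library of the others (against DMSO, 1.54-fold, log2 0.62 ± 0.11, adjusted p = 0.000138). Senescent DDD86481 libraries had 75.9, 108 and 106 CPM, of which replicate 1 lay within the DMSO range (1.29-fold, log2 0.37 ± 0.11, adjusted p = 0.0114). That call was lost without senescent DMSO replicate 3 (0.31, adjusted p = 0.0583), senescent DDD86481 replicate 2 (0.28, adjusted p = 0.0762) or replicate 3 (0.30, adjusted p = 0.0581). Control cells had 79.2, 81.4 and 82.8 CPM with IMP1088 and 84.2, 84.5 and 85.2 CPM with DDD86481, all above the control DMSO libraries. The rises were 1.25-fold (log2 0.32 ± 0.11, adjusted p = 0.031) and 1.31-fold (log2 0.38 ± 0.11, adjusted p = 0.011). The call for IMP1088 in control cells was lost when any library but control DMSO replicate 1 was left out (adjusted p from 0.057 to 0.103), under upper quartile scaling (0.0686) and with only the groups compared in the fit (0.0665).

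ATF6B, the paralogue of ATF6 and a weaker activator, was the only one of the 6 factors that rose with senescence and with each inhibitor in each state. Its level ran from 40.5 to 54.3 CPM in control DMSO and from 63.2 to 71.8 CPM in senescent DMSO, with no overlap (1.36-fold, log2 0.44 ± 0.10, edgeR adjusted p = 0.000661, and 0.29 under upper quartile scaling, adjusted p = 0.0153). In control cells it ran from 70.3 to 75.8 CPM with IMP1088 (1.48-fold, log2 0.57 ± 0.10, adjusted p = 0.000229) and from 72.5 to 77.5 CPM with DDD86481 (1.51-fold, log2 0.60 ± 0.10, adjusted p = 0.000129). The control IMP1088 range overlapped with that of senescent DMSO, and the control DDD86481 range lay just above it. In senescent cells the range was 80.6 to 89.6 CPM with IMP1088 (1.26-fold, log2 0.33 ± 0.10, adjusted p = 0.0109) and 76.7 to 87.6 CPM with DDD86481 (1.22-fold, log2 0.29 ± 0.10, adjusted p = 0.0238). Both rises in senescent cells depended on single libraries. The one with IMP1088 was lost without senescent DMSO replicate 1 (adjusted p = 0.0541) or senescent IMP1088 replicate 2 (0.0557), and the one with DDD86481 without senescent DMSO replicate 1 (0.0965) or 3 (0.0635), without senescent DDD86481 replicate 2 (0.0515) or 3 (0.0911), and with no filter on low counts (0.0508).

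CREB3L1, or OASIS, is known for collagen genes in bone and in fibroblasts, and fell with senescence and again with both inhibitors in senescent cells. It had 174, 168 and 133 CPM in control DMSO and 74.3, 78.3 and 77.4 CPM in senescent DMSO, less than any control library (log2 fold change -1.05 ± 0.11, edgeR adjusted p = 2.59e-08). Senescent cells had 51.6, 51 and 49.8 CPM with IMP1088 and 59.6, 46.2 and 54.1 CPM with DDD86481, without overlap with DMSO. CREB3L1 thereby fell by 0.59 ± 0.11 on the log2 scale with IMP1088 (adjusted p = 0.000141) and by 0.52 ± 0.11 with DDD86481 (adjusted p = 0.000492). In control cells the level was 131, 130.1 and 135 CPM with IMP1088 and 153, 127 and 131 CPM with DDD86481, within or just under the DMSO range, with log2 fold changes of -0.26 ± 0.10 (adjusted p = 0.0564) and -0.21 ± 0.10 (adjusted p = 0.118). Without control DMSO replicate 3, which was the lowest of its group, these passed the threshold (-0.37, adjusted p = 0.00404, and -0.32, adjusted p = 0.0117), as they did under upper quartile scaling (adjusted p = 0.0177 and 0.0334).

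CREB3L2, or BBF2H7, a regulator of COPII transport genes in cartilage, had differences of opposite sign in the 2 states under the inhibitors. In senescent DMSO its level was 91.6, 95.6 and 82.4 CPM, against 62.9, 65.1 and 65.8 CPM with IMP1088 and 59.4, 68.1 and 77.6 CPM with DDD86481, and neither inhibitor group overlapped with DMSO. The log2 fold change was -0.48 ± 0.18 with IMP1088 (edgeR adjusted p = 0.0366) and -0.40 ± 0.18 with DDD86481 (adjusted p = 0.082), where the latter passed with no filter on low counts (0.0142) and with only the groups compared in the fit (0.0154). The fall with IMP1088 was lost when any of the 6 libraries but senescent DMSO replicate 3 was left out (adjusted p from 0.073 to 0.106). Control DMSO libraries spread widely, at 92.0, 66.7 and 47.4 CPM, and control cells had 92.8, 71.9 and 89.2 CPM with IMP1088 and 109, 71.4 and 99.4 CPM with DDD86481. These groups overlapped, with log2 fold changes of 0.30 ± 0.18 (adjusted p = 0.207) and 0.44 ± 0.18 (adjusted p = 0.0601) for the inhibitors and 0.39 ± 0.18 (adjusted p = 0.0618) for senescence. Each of the 3 passed the threshold without control DMSO replicate 1, at 0.57 (adjusted p = 0.00797), 0.71 (adjusted p = 0.00141) and 0.65 (adjusted p = 0.00123), and the difference with DDD86481 also did without control DDD86481 replicate 2 (0.59, adjusted p = 0.0189), with no filter on low counts (0.44, 0.00846) and with limma-voom (0.46, 0.0479). Without control DMSO replicate 3 the same differences shrank to 0.091 (adjusted p = 0.703), 0.23 (adjusted p = 0.275) and 0.18 (adjusted p = 0.302). The senescence difference passed as well with DESeq2 (0.42, adjusted p = 0.0479), limma-voom (0.43, 0.0412), DESeq2-style size factors (0.41, 0.0461) and no filter on low counts (0.42, 0.00616).

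CREB3L4, also called AIbZIP and best known from the prostate, was measured at low counts, from 32 to 176 a library. It fell with senescence, from between 5.03 and 6.52 CPM to between 1.81 and 2.96 CPM (log2 fold change -1.22 ± 0.23, edgeR adjusted p = 9.06e-05). With IMP1088 in senescent cells it rose to between 3.59 and 4.75 CPM (1.76-fold, log2 0.82 ± 0.24, adjusted p = 0.0084), which stayed under the control DMSO range. The call was lost without senescent DMSO replicate 3 (0.65, adjusted p = 0.0577). With DDD86481 the range was 1.96 to 3.71 CPM, which overlapped with DMSO (log2 0.38 ± 0.25, adjusted p = 0.23), and the difference passed the threshold without senescent DDD86481 replicate 3 (0.60, adjusted p = 0.0478). In control cells neither inhibitor passed the test, at 0.38 ± 0.20 for both (adjusted p = 0.146 and 0.144).

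MBTPS1, the site-1 protease, had 243, 229 and 196 CPM in control DMSO and 234, 236 and 237 CPM in senescent DMSO. The groups overlapped, with a log2 fold change of 0.082 ± 0.080 (edgeR adjusted p = 0.373) that turned to -0.072 under upper quartile scaling and to -0.0015 without control DMSO replicate 3. In control cells its level was 258, 260.4 and 271 CPM with IMP1088 (1.18-fold, log2 0.24 ± 0.080, adjusted p = 0.0259) and 274, 255 and 266 CPM with DDD86481 (1.19-fold, log2 0.25 ± 0.080, adjusted p = 0.0193), above every DMSO library. Both calls were lost without control DMSO replicate 3 (0.16, adjusted p = 0.113, and 0.17, adjusted p = 0.0895), under upper quartile scaling (adjusted p = 0.0623 and 0.0587), with no filter on low counts (0.0911 and 0.0654) and with only the groups compared in the fit (0.149 and 0.145). The first was also lost without control IMP1088 replicate 2 (0.0502) or 3 (0.0694), and the second without control DDD86481 replicate 1 (0.0637). Senescent cells had 221, 216 and 209.9 CPM with IMP1088 and 224, 210.3 and 222 CPM with DDD86481. These lay just under the DMSO libraries, and did not pass the test, at -0.13 ± 0.081 (adjusted p = 0.21) and -0.11 ± 0.081 (adjusted p = 0.295).

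MBTPS2, the site-2 protease, whose gene lies on the X chromosome, varied least of the 8 genes over the 6 group means (root mean square 0.103 on the log2 scale). It ran from 38.7 to 40.5 CPM in control DMSO and from 44.8 to 49.4 CPM in senescent DMSO, without overlap (1.21-fold, log2 0.27 ± 0.085, edgeR adjusted p = 0.00777). Under upper quartile scaling, which shifted the median over all genes tested by -0.15 (log2) in this comparison, the rise was 0.12 (adjusted p = 0.227). With the inhibitors, control libraries ran from 35.9 to 41.9 CPM and senescent libraries from 40.0 to 44.2 CPM. The differences from DMSO did not pass the threshold, at -0.042 ± 0.085 and 0.0039 ± 0.085 in control cells (adjusted p = 0.736 and 0.98) and -0.17 ± 0.085 and -0.20 ± 0.085 in senescent cells (adjusted p = 0.111 and 0.0638) for IMP1088 and DDD86481. The last passed it with DESeq2 (-0.21, adjusted p = 0.0316), under upper quartile scaling (-0.21, adjusted p = 0.0471) and without senescent DMSO replicate 3 (-0.25, adjusted p = 0.0435).

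Counted by comparison, senescence with DMSO changed 4 of the 8 genes, ATF6B and MBTPS2 upward and CREB3L1 and CREB3L4 downward, where 68.5% of all genes tested were called (32.5% higher and 36.0% lower). IMP1088 in senescent cells changed 6, with ATF6, ATF6B, CREB3 and CREB3L4 higher and CREB3L1 and CREB3L2 lower, against 44.4% of all genes (20.6% higher and 23.9% lower). DDD86481 in senescent cells changed 4, with ATF6, ATF6B and CREB3 higher and CREB3L1 lower, against 43.2% (20.1% higher and 23.1% lower). In control cells each inhibitor raised the same 4 genes, ATF6, ATF6B, CREB3 and MBTPS1, and lowered 0, where IMP1088 called 33.7% of all genes (16.3% higher and 17.4% lower) and DDD86481 36.6% (17.8% higher and 18.7% lower). The calls of both inhibitors in a state rest on the same 3 DMSO libraries, so the inhibitors are not independent of each other. When only the 6 libraries compared were fitted, 2 of the 8 genes were called in control cells for each inhibitor, and the counts over all genes were 2716 in place of 4829 for IMP1088 and 2842 in place of 5242 for DDD86481.

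**Figure D2:**
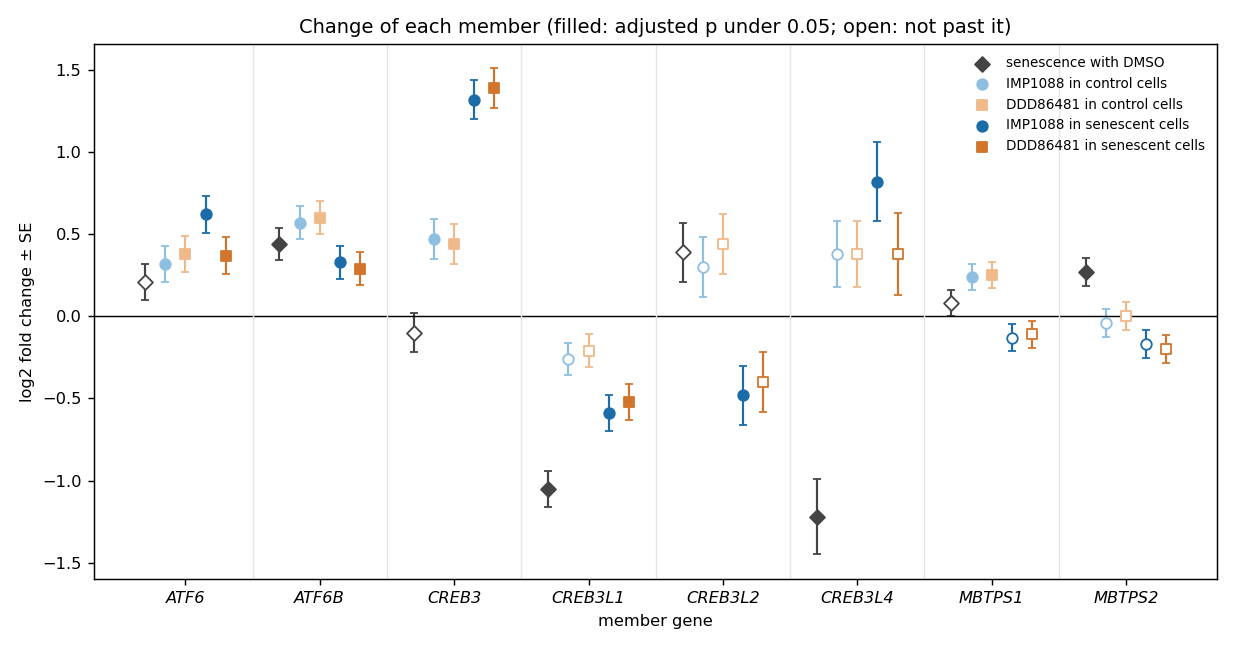
Log2 fold change ± SE (vertical axis) of each of the 8 genes (horizontal axis) with senescence and with each inhibitor in each state. Filled symbols passed an adjusted p of 0.05. The changes of CREB3 in senescent cells, 1.32 and 1.39, are the largest rises, and those of CREB3L4 and CREB3L1 with senescence, -1.22 and -1.05, the largest falls.

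Whether an inhibitor acted differently in senescent than in control cells was tested by an interaction term, senescent effect minus control effect. With IMP1088, 3 of the 8 genes passed it (CREB3 higher, CREB3L2 and MBTPS1 lower), where 26.2% of all genes did (12.1% higher and 14.2% lower). With DDD86481 the same 3 genes passed in the same directions, where 30.3% of all genes did (14.4% higher and 15.9% lower). CREB3 rose more in senescent cells, by 0.85 ± 0.16 with IMP1088 (edgeR adjusted p = 0.000853) and 0.95 ± 0.16 with DDD86481 (adjusted p = 0.000316), and kept both calls under every alternative run. CREB3L2 gave -0.77 ± 0.25 (adjusted p = 0.0294) and -0.83 ± 0.25 (adjusted p = 0.0181). Its call with IMP1088 was lost when any of the 12 libraries but control DMSO replicate 1, control IMP1088 replicate 2 and senescent DMSO replicate 3 was left out (adjusted p from 0.0501 to 0.0896). With DDD86481 it was lost without control DDD86481 replicate 1 (0.069) or 3 (0.0542), without senescent DDD86481 replicate 1 (0.0521) and with only the groups compared (0.0543). MBTPS1 gave -0.37 ± 0.11 (adjusted p = 0.022) and -0.36 ± 0.11 (adjusted p = 0.0225). These calls were lost without control IMP1088 replicate 1 (0.059), 2 (0.059) or 3 (0.0685) or senescent IMP1088 replicate 3 (0.0552) for IMP1088, without control DDD86481 replicate 1 (0.0782) or 3 (0.0717) or senescent DDD86481 replicate 2 (0.0534) for DDD86481, and with no filter on low counts (0.0635 and 0.0612) or only the groups compared (0.0569 and 0.106).

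For ATF6, ATF6B, CREB3L1, CREB3L4 and MBTPS2 the interaction did not pass the threshold with either inhibitor. The values for ATF6 were 0.30 ± 0.16 with IMP1088 (edgeR adjusted p = 0.168) and -0.016 ± 0.16 with DDD86481 (adjusted p = 0.954). Those for ATF6B were -0.23 ± 0.14 (adjusted p = 0.23) and -0.31 ± 0.14 (adjusted p = 0.107), and those for CREB3L1 -0.33 ± 0.15 (adjusted p = 0.107) and -0.31 ± 0.15 (adjusted p = 0.115). ATF6B with DDD86481 and CREB3L1 with either inhibitor passed when control DMSO replicate 1 was left out (adjusted p = 0.0408, 0.0414 and 0.0462). CREB3L4 gave 0.43 ± 0.31 (adjusted p = 0.318) with IMP1088 and -0.0033 ± 0.38 with DDD86481, and MBTPS2 gave -0.13 ± 0.12 (adjusted p = 0.452) and -0.20 ± 0.12 (adjusted p = 0.205).

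**Figure D3:**
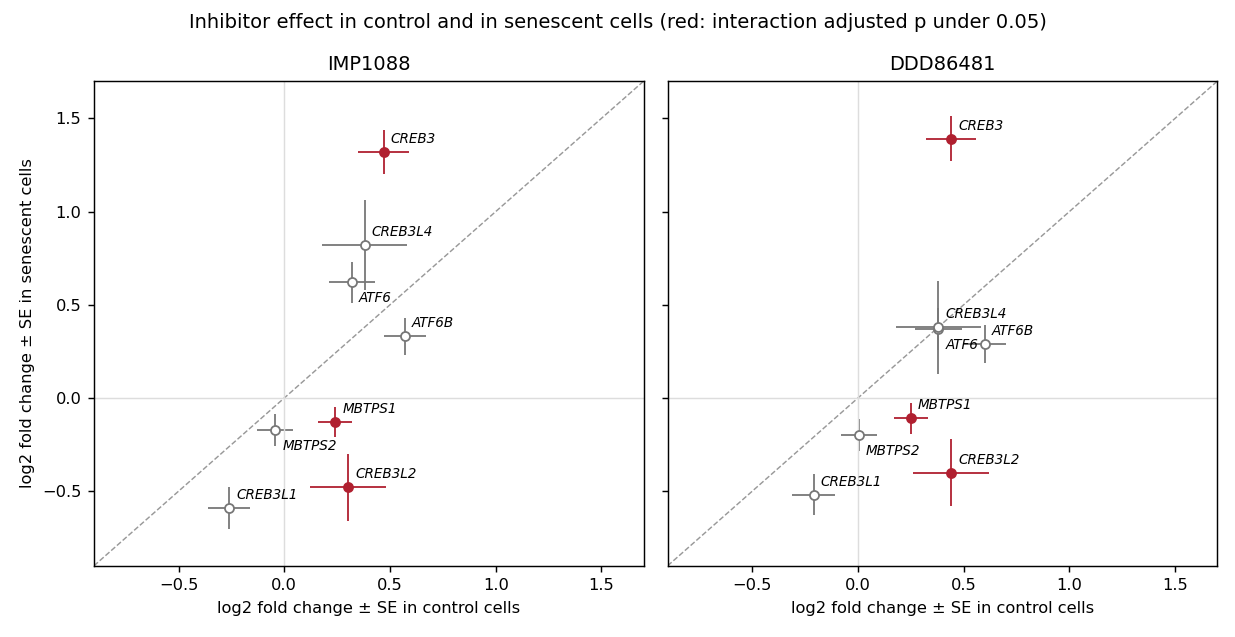
Log2 fold change ± SE with IMP1088 (left panel) and DDD86481 (right panel) in control cells (horizontal axis) and in senescent cells (vertical axis), with a dashed line where both are equal. The genes in red, CREB3 above the line and CREB3L2 and MBTPS1 below it, passed the interaction test with both inhibitors.

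The inhibitors were given at different doses, 300 nM and 1.5 µM, so a difference between them is one between these treatments. Between senescent IMP1088 and senescent DDD86481, a comparison that was added after the values were seen, 0 of 14341 genes passed edgeR's test (0% called), with 570 genes at an unadjusted p under 0.05. DESeq2 and limma-voom also called 0, with 603 and 565 at an unadjusted p under 0.05. The interval of the difference (IMP1088 minus DDD86481, log2, 95%) ran from -0.30 to 0.15 for CREB3, from 0.036 to 0.47 for ATF6, from -0.28 to 0.14 for CREB3L1 and from -0.43 to 0.27 for CREB3L2. For MBTPS1 it ran from -0.18 to 0.14 and for MBTPS2 from -0.14 to 0.20. The interval for CREB3L4, from -0.0071 to 0.89, was the widest of the 8.

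ER chaperone and degradation genes that are known as ATF6 targets rose under both inhibitors, most of them in both states. Of 15 listed targets, several of which also answer to XBP1 or CREB3 factors, 14 rose with IMP1088 in senescent cells and 13 with DDD86481, while 0 fell, and the medians of their log2 fold changes were 0.87 and 0.78. Over all genes tested the medians were -0.043 and -0.037, and 20.6% and 20.1% were called higher. In control cells 10 rose and 0 fell with each inhibitor (median 0.78 and 0.77, against -0.0011 and 0 over all genes). There 16.3% and 17.8% of all genes were called higher. With senescence alone 6 rose, XBP1 fell and 8 did not pass the test (median 0.14, against -0.051). The calls with senescence, 7 of 15, stand beside 68.5% of all genes called (32.5% higher and 36.0% lower). The list stands here by counts and medians, with no test of the list.

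HSPA5, which encodes the chaperone BiP that holds ATF6 in the ER, went from 1171 CPM ± 82.6 (SD, n = 3) in senescent DMSO to 4648 ± 152 with IMP1088 and 3842 ± 303 with DDD86481 (log2 fold change 1.99 ± 0.15, edgeR adjusted p = 3.61e-09, and 1.71 ± 0.15, adjusted p = 2.23e-08). In control cells it went from 822 ± 40.0 to 1908 ± 213 and 1932 ± 564 CPM. The rise with IMP1088 was larger in senescent cells (interaction 0.77 ± 0.20, adjusted p = 0.00887), while with DDD86481 the interaction was 0.48 ± 0.20 (adjusted p = 0.0784). HERPUD1, a membrane protein of ER-associated degradation, rose in senescent cells by 2.39 ± 0.14 with IMP1088 (adjusted p = 2.11e-10) and by 2.02 ± 0.14 with DDD86481 (adjusted p = 1.75e-09), and in control cells by 1.65 ± 0.14 and 1.66 ± 0.14 (adjusted p = 3.17e-08 and 3.28e-08). SDF2L1, a partner of BiP, rose in senescent cells by 1.14 ± 0.20 (adjusted p = 0.000114) and 1.12 ± 0.20 (adjusted p = 0.000143). DERL3, a channel component of degradation, stood in senescent cells at 0.64 CPM ± 0.155 with DMSO, 4.79 ± 0.825 with IMP1088 and 4.56 ± 0.724 with DDD86481 (log2 2.90 ± 0.34, adjusted p = 1.13e-06, and 2.84 ± 0.34, adjusted p = 1.65e-06). In control DMSO it had 3, 2 and 3 counts, at the counting limit, and control cells had 1.69 CPM ± 0.322 with IMP1088 and 1.2 ± 0.768 with DDD86481. With DERL3 set to 3 counts a library in control DMSO, its rise was at least 4.29-fold for senescence. For IMP1088 and DDD86481 in control cells it was at least 11.3-fold and 8.05-fold. DERL3 thereby stayed above the medians of the list, 0.14, 0.78 and 0.77, which could not move, so this is no check of the list.

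Of 5 genes known as targets of CREB3, CREB3L1 or CREB3L2, a list that shares HERPUD1 with that of ATF6, 3 rose and COL1A1 fell with each inhibitor in senescent cells, and 3 rose and 0 fell in control cells. With senescence alone 1 fell and 4 did not pass the test. Of all genes tested, 44.4% and 43.2% were called with IMP1088 and DDD86481 in senescent cells, 33.7% and 36.6% in control cells and 68.5% with senescence. The list's medians were 0.29 and 0.26 in senescent cells (-0.043 and -0.037 over all genes), 0.38 and 0.44 in control cells (-0.0011 and 0) and -0.086 with senescence (-0.051). ARF4, a Golgi GTPase known as a CREB3 target, was highest, like CREB3, in senescent cells given an inhibitor, and went from 393 CPM ± 23 in senescent DMSO to 2093 ± 101 with IMP1088 (log2 fold change 2.41 ± 0.13, edgeR adjusted p = 8e-11) and 1807 ± 213 with DDD86481 (2.20 ± 0.13, adjusted p = 2.46e-10). In control cells ARF4 rose by 0.95 ± 0.13 with IMP1088 (adjusted p = 1.21e-05) and with DDD86481 by 0.88 ± 0.13 (adjusted p = 2.81e-05), and its interaction was 1.46 ± 0.18 (adjusted p = 1.08e-05) and 1.32 ± 0.18 (adjusted p = 2.9e-05). SEC23A, a COPII coat subunit, rose in senescent cells by 0.29 ± 0.096 with IMP1088 (adjusted p = 0.0204) and 0.26 ± 0.096 (adjusted p = 0.0348). Leaving out single libraries ended that call for each inhibitor 4 times in 6, without senescent DMSO replicate 2 or 3 for both, senescent IMP1088 replicate 1 or 3 (adjusted p from 0.0592 to 0.0982 for IMP1088) and senescent DDD86481 replicate 2 or 3 (from 0.0536 to 0.128 for DDD86481). The call with DDD86481 was also lost with no filter on low counts (0.0681).

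COL1A1, a collagen chain and known CREB3L1 target, went from 7600.2 CPM ± 1814 in control DMSO to 3208 ± 272 in senescent DMSO (log2 fold change -1.24 ± 0.18, edgeR adjusted p = 3.76e-06). In senescent cells it fell further, to 831 ± 75 CPM with IMP1088 (-1.95 ± 0.18, adjusted p = 5.91e-08) and 1128 ± 318 CPM with DDD86481 (-1.51 ± 0.18, adjusted p = 1.38e-06). In control cells the differences were 0.19 ± 0.18 (adjusted p = 0.435) and 0.26 ± 0.18 (adjusted p = 0.256). The interaction passed with both inhibitors, at -2.14 ± 0.25 (adjusted p = 6.67e-06) and -1.77 ± 0.25 (adjusted p = 4.62e-05). CREB3L1 shared the directions of COL1A1 in senescent cells, while its own interaction did not pass the threshold. COL1A1 is also one of the 8 fibroblast markers, whose levels did not all differ in one direction. COL1A2, the partner chain of COL1A1, stood at 708 CPM ± 78.2 in senescent DMSO and at 1385 ± 105 and 1685 ± 278 with IMP1088 and DDD86481, and LUM at 8.39 ± 1.01, 14.9 ± 2.82 and 17.3 ± 3.38. VIM stood at 5035 CPM ± 432 in control DMSO and 11681 ± 374 in senescent DMSO, and in senescent cells at 9183 ± 171 and 8473 ± 202 with the inhibitors. COL3A1, PDGFRB and THY1 were likewise lower with both inhibitors in senescent cells. COL3A1 went from 296 CPM ± 47.9 to 70.5 ± 11.9 and 93.2 ± 13.5, and PDGFRB from 169 ± 12.1 to 110.3 ± 3.18 and 101 ± 5.64. THY1 went from 414 CPM ± 43.8 to 175 ± 13.7 and 163 ± 22.0, and DCN stood at 7.73 ± 0.288, 7.72 ± 0.722 and 8.75 ± 0.626.

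**Figure D4:**
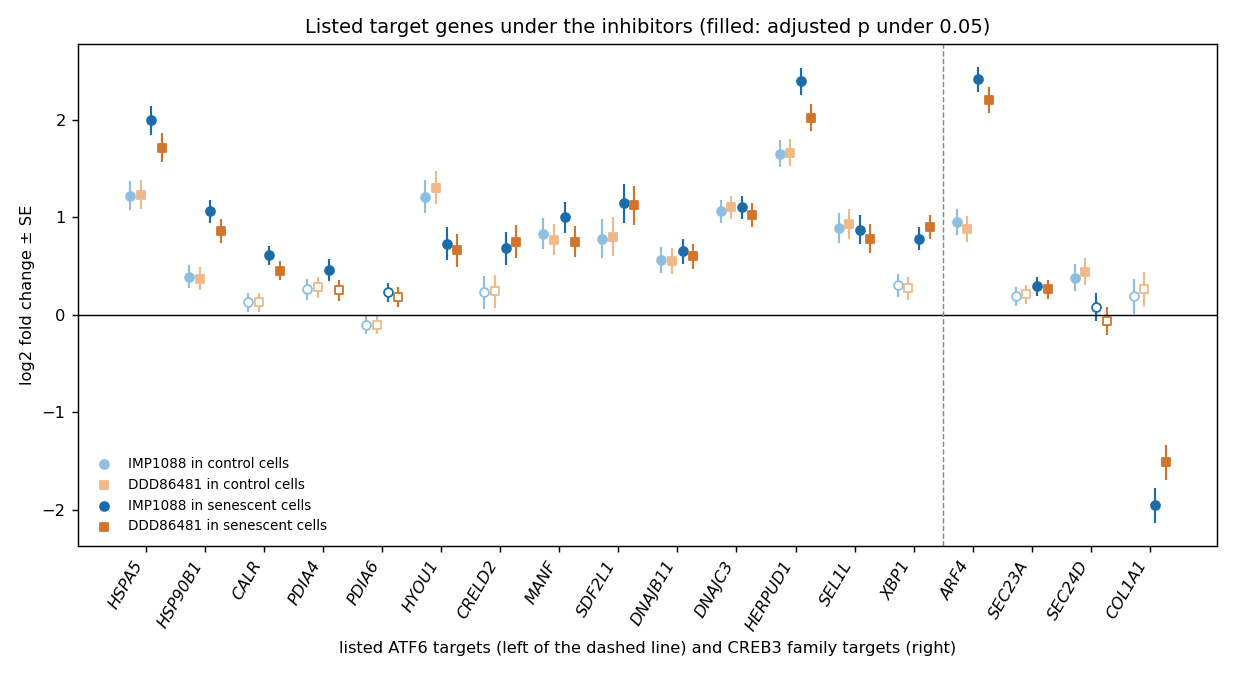
Log2 fold change ± SE (vertical axis) of listed ATF6 targets (left of the dashed line) and CREB3 family targets (right; HERPUD1 is in both lists and drawn once) with each inhibitor in each state, with filled symbols where the adjusted p was under 0.05. HERPUD1 and ARF4 rise most, at 2.39 and 2.41 with IMP1088 in senescent cells, and COL1A1 stands lowest, at -1.95. DERL3, near the counting limit in control DMSO, is not drawn.

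MBTPS1 and MBTPS2 also process other proteins, among them the sterol regulators SREBF1 and SREBF2. Of 7 such clients and their partners, 5 rose and 2 fell with senescence, 5 rose and 0 fell with each inhibitor in control cells, and in senescent cells 3 rose and 1 fell with IMP1088 and 4 rose and 0 fell with DDD86481. The calls in all were 7 of 7 with senescence, where 68.5% of all genes were called, 5 of 7 in control cells (33.7% and 36.6% of all genes) and 4 of 7 in senescent cells (44.4% and 43.2%). The medians were 0.66 with senescence, 0.61 and 0.75 in control cells and 0.25 and 0.44 in senescent cells with IMP1088 and DDD86481, against all-gene medians of -0.051, -0.0011, 0, -0.043 and -0.037. INSIG2, which keeps the SREBF escort in the ER, rose in senescent cells by 1.32 ± 0.12 with each inhibitor (edgeR adjusted p = 4.31e-08 and 5.34e-08) and in control cells by 0.87 ± 0.12 and 0.75 ± 0.12 (adjusted p = 1.62e-05 and 8e-05). INSIG1, its sterol-induced paralogue, rose with senescence by 2.84 ± 0.22 (adjusted p = 3.29e-10) and in senescent cells by a further 0.98 ± 0.20 with IMP1088 (adjusted p = 0.000458) and 1.22 ± 0.20 (adjusted p = 5.27e-05). Its rise in control cells was 1.62 ± 0.21 with IMP1088 (adjusted p = 7.94e-06) and 1.64 ± 0.21 with DDD86481 (adjusted p = 7.44e-06). SCAP, the escort itself, fell by 0.59 ± 0.095 with senescence (adjusted p = 1.52e-05) and rose in senescent cells by 0.44 ± 0.096 (adjusted p = 0.000834) and 0.53 ± 0.096 (adjusted p = 0.00014). GNPTAB, a Golgi enzyme that MBTPS1 must cut to be active, fell by 0.34 ± 0.13 with IMP1088 in senescent cells (adjusted p = 0.0347), a call lost without senescent DMSO replicate 1 (0.0921) or 2 (0.0857) or senescent IMP1088 replicate 1 (0.105) or 2 (0.118). When only the groups compared were fitted, all 7 genes were called with IMP1088 in senescent cells. These calls are counted in either direction. That fit also called more genes in all than the fit of the 18 libraries, so the larger number of calls in this list cannot be set apart from a general one.

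Proteins that hold back or promote the release of ATF6 or CREB3 formed a list of 7, of which TM4SF20 had 0 or 1 counts a library and was not tested. With IMP1088 and with DDD86481 in senescent cells 3 of 6 rose and WFS1 fell, in control cells 2 rose and 0 fell, and with senescence 4 rose and 1 fell. The 2 of 6 called in control cells stand beside 33.7% and 36.6% of all genes, the 4 of 6 in senescent cells beside 44.4% and 43.2%, and the 5 of 6 with senescence beside 68.5%. The medians were 0.19 and 0.28 in senescent cells (-0.043 and -0.037 over all genes), 0.094 and 0.12 in control cells (-0.0011 and 0) and 0.29 with senescence (-0.051). Besides HSPA5, described above, TXNDC12, a thiol oxidoreductase of the ER, rose in senescent cells by 0.41 ± 0.10 (edgeR adjusted p = 0.00261) and 0.36 ± 0.10 (adjusted p = 0.00814). PDIA5, a disulphide isomerase that acts on ATF6, rose by 0.26 ± 0.091 with IMP1088 (adjusted p = 0.0267) and by 0.27 ± 0.091 with DDD86481 (adjusted p = 0.0217). Neither call held with no filter on low counts (0.0901 and 0.0783). That with IMP1088 was also lost without senescent DMSO replicate 1 (0.0528) or 2 (0.129) or senescent IMP1088 replicate 2 (0.0684) or 3 (0.0866), and that with DDD86481 without senescent DMSO replicate 2 (0.11) or senescent DDD86481 replicate 3 (0.0511). WFS1, a negative regulator of ATF6, fell by 0.41 ± 0.12 with each inhibitor (adjusted p = 0.00681 and 0.00769). The interaction passed for TXNDC12 (0.47 ± 0.15, adjusted p = 0.0224, and 0.44 ± 0.15, adjusted p = 0.028) and for WFS1 (-0.48 ± 0.16, adjusted p = 0.0371, and -0.52 ± 0.16, adjusted p = 0.0228).

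The profiles of the 8 genes over the 6 group means were set beside each other by the root mean square of their differences after centring (log2 CPM). ATF6 and ATF6B were the closest pair, at 0.12, followed by CREB3L2 and MBTPS1 at 0.125, and CREB3 and CREB3L1 the farthest apart, at 1.11. Of all genes tested, the 3 most like CREB3 were CHMP2B (0.0516), SMYD5 (0.0727) and TLCD1 (0.0794), and 9 genes in all lay within 0.1 of it. The nearest to ATF6 were POLM (0.0305), C19orf47 (0.0423) and PLPBP (0.049), and to ATF6B ULK1 (0.0362), ZNF865 (0.0368) and COPA (0.0408). For CREB3L1 they were EIF4G2 (0.0496), MAGI3 (0.0496) and ZEB1-AS1 (0.0531), and for CREB3L2 TECPR2 (0.0351), C20orf194 (0.0361) and TLE3 (0.0369). CREB3L4 came nearest to C1orf56 (0.0759), ZNF184 (0.0801) and USP27X-AS1 (0.0854), of which 1 of 3 stayed with a prior count of 0.5 in place of 2, while ATF6B kept 2 of 3 and the other 6 genes all 3. The flat profiles of MBTPS1 and MBTPS2 had many neighbours, 258 and 315 genes within 0.1, led by HIRA (0.0179), VPS35L (0.0252) and SLC35B4 (0.0307), and by PGS1 (0.0187), ZBTB17 (0.0307) and ATG16L1 (0.0322).

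The GENCODE annotation of GRCh37 places ATF6 at chr1:161736088-161947364 on the plus strand, ATF6B at chr6:32083041-32096030 on the minus strand, CREB3 at chr9:35732595-35736996 on the plus strand and CREB3L1 at chr11:46299213-46342959 on the plus strand. It places CREB3L2 at chr7:137559725-137686832 on the minus strand, CREB3L4 at chr1:153940010-153946837 on the plus strand, MBTPS1 at chr16:84087366-84150547 on the minus strand and MBTPS2 at chrX:21857735-21903541 on the plus strand. All are protein-coding genes. Exons of 4 of the 8 overlap other genes, and their counts are uncertain to that extent. For MBTPS2, YY2 on the same strand shares 12.2% of its exonic bases, and YY2 itself had between 16 and 67 counts a library, and a Y RNA shares 1.14%. CREB3L4 shares 9.65% with SLC39A1 and 3.2% with JTB, CREB3 shares 8.2% with GBA2, all on the opposite strand, and ATF6B shares 7.96% with a long non-coding RNA and 1.96% with TNXB on its own strand. Exons of ATF6, CREB3L1, CREB3L2 and MBTPS1 shared 0 bases with another gene of that annotation.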

How the data were processed

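The authors deposited one table of raw counts per gene and library, with no normalization, and the counts were used as deposited. The study's methods and reporting summary describe directional poly(A) libraries, single-end reads, TopHat with the first-strand library setting, hg19 with Ensembl annotation, and HTSeq, while the submitters' processing notes list DRAGEN, STAR 2.7.8a, DESeq2 1.32.0 and hg38. Which of these made the table is not given in the sources used here, nor is the strand setting of the counting step, so exonic overlaps between genes could shift counts. Libraries were grouped by their labels, and no pair agreed within sampling noise (chi-square per gene at least 5.26).

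Genes were filtered with filterByExpr, which left 14341 of 28266 rows and 99.962% of the counts. They were scaled by TMM and tested in 1 fit of the 18 libraries with edgeR's quasi-likelihood test (edgeR 4.0.16, limma 3.58.1, R 4.3.3). P-values were adjusted by Benjamini-Hochberg over all genes tested, with a threshold of 0.05, and the SE was taken from the F statistic. DESeq2 1.42.0, limma-voom and other settings were run as alternatives, and the fit was tested on simulated data. The members and gene lists were chosen with earlier results of these data known. All 8 members were named, and of each list up to 4 genes with the largest change past the threshold with IMP1088 in senescent cells. The contrast between the inhibitors was added after the values were seen.

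Same-numbered libraries deviated together, with every correlation above 0.1, in 3 of the 15 pairs of groups: control DMSO with control IMP1088 (r = 0.394, 0.123 and 0.231), control IMP1088 with control DDD86481 (0.101, 0.27 and 0.129) and senescent IMP1088 with senescent DDD86481 (0.117, 0.126 and 0.119). No label says what a number stands for.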

Additional observations from a re-analysis of the deposited data

Results flagged for a closer look

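In 3 of the 8 genes the effect of the inhibitors differed between senescent and control cells by the interaction term of the edgeR fit. Of all genes tested, 26.2% passed this term with IMP1088 and 30.3% with DDD86481. CREB3 differed by 0.85 with IMP1088 and by 0.95 with DDD86481 (log2, senescent minus control effect), and rose in both states. CREB3L2 differed by -0.77 and -0.83, with lower levels under the inhibitors in senescent cells and higher ones in control cells, of which the fall with IMP1088 passed the test. MBTPS1 differed by -0.37 and -0.36, with a rise in control cells and a difference in senescent cells that did not pass. The interaction calls of CREB3L2 and MBTPS1 were lost in several of the alternatives described above, and those of CREB3 in none. Both inhibitors were compared with the same DMSO libraries, so the paired values are not independent of each other.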

How the results depend on the processing

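With the replicate number as a block, the fit called 9913 genes for senescence, 6510 and 6259 for IMP1088 and DDD86481 in senescent cells and 5003 and 5412 in control cells, and 3974 and 4555 for the interactions. The replicate block changed no call of the 8 genes.

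When only the groups compared were fitted, the calls in control cells went to 2716 genes and 2 of the 8 for IMP1088 and to 2842 genes and 2 of the 8 for DDD86481, and 1 of the 8 passed the interaction with DDD86481. These fits held fewer libraries. With no filter on low counts 1 gene differed between the inhibitors in senescent cells.

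Leaving out single libraries gave 9239 to 10027 genes and 4 to 6 of the 8 for senescence, 5454 to 5617 and 4 to 5 for IMP1088 in senescent cells, and 5282 to 5812 and 2 to 4 for DDD86481 in senescent cells. In control cells it gave 3505 to 5892 genes and 2 to 5 of the 8 for IMP1088 and 3773 to 6317 and 3 to 5 for DDD86481. For the interactions it gave 2738 to 5242 and 1 to 4 for IMP1088 and 3419 to 5796 and 1 to 5 for DDD86481.

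Signs turned where the difference was near 0. Under upper quartile scaling MBTPS1 was -0.072 with senescence, MBTPS2 -0.06 with DDD86481 in control cells, and the interaction with DDD86481 was 0.031 for ATF6 and 0.05 for CREB3L4. With only the groups compared, MBTPS2 was -0.0001 and the interactions of ATF6 and CREB3L4 were 0.024 and 0.034. Leaving out single libraries gave -0.17 to 0.015 for CREB3 and -0.0015 to 0.15 for MBTPS1 with senescence, -0.031 to 0.071 for MBTPS2 with DDD86481 in control cells, and -0.11 to 0.13 for ATF6 and -0.17 to 0.22 for CREB3L4 in the interaction with DDD86481. Between the inhibitors in senescent cells it gave -0.008 to 0.088 for ATF6B, -0.13 to 0.046 for CREB3, -0.16 to 0.02 for CREB3L1, -0.17 to 0.019 for CREB3L2 and -0.00061 to 0.059 for MBTPS2. The cause was not tested. At 32 to 176 counts a library, CREB3L4 was the member limited most by depth.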
